A study of Mus musculus with 14 samples.

Results

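A set of 6 genes known as markers of inflammatory, Ly6C-high monocytes were followed through mouse blood monocytes and brain macrophages: Ly6c2, Ms4a4c, Plac8, Hp, F13a1 and Vcan. They were chosen by name, with earlier results of these data known. The array probes whose annotated transcript belongs to these 6 symbols were collected. This gave 7 probes (2 for Vcan, 1 for each other gene) out of 41174 non-control probes and 6 of the 17178 symbols that could be assigned. Expression was measured on 14 one-colour Agilent arrays from male YARG mice, a strain in which arginase-1 expression is read from a fluorescent reporter, aged 12 to 16 weeks in all groups. The groups were Arg1+ brain macrophages (n = 4) and Arg1- brain macrophages (n = 4) at day 1 after traumatic brain injury (TBI) by controlled cortical impact, blood monocytes at day 1 after TBI (post-TBI blood, n = 3) and blood monocytes of untreated mice (normal blood, n = 3). A sham-operated group and uninjured brain are not among the groups. The sort used CD45, CD11b and Ly6G antibodies and one to the macrophage antigen encoded by Adgre1, so Ly6C itself was not part of the antibody panel, and a blood group can hold monocytes with much and with little Ly6C. The labels do not say whether a replicate is 1 animal or a pool, so p-values measure only the spread between these samples, part of which may be technical.

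Monocytes in mouse blood form 2 main populations. Ly6C-high cells leave the bone marrow, depend on the receptor CCR2 for their release and enter inflamed tissue, where they turn into macrophages, while Ly6C-low cells patrol vessel walls and depend on the nuclear receptor Nr4a1. As Ly6C-high monocytes mature in tissue they are known to lose surface Ly6C. The brain also has resident macrophages, the microglia, which carry little or no Ly6C and cannot be told from entering cells by the arginase-1 reporter alone. In bulk RNA of sorted cells, fewer cells of a type and less RNA per cell cannot be told apart.

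Levels below are log2 ratios of a probe's signal to the 75th percentile of all non-control probes on the same array, so 0 is the level of that percentile and a difference of 1 is a 2-fold difference. Values on single arrays are listed in replicate order, which is 2, 3, 4 for normal blood, 1, 3, 4 for post-TBI blood and 1 to 4 for each brain group. Levels are compared between groups for the same probe, never between genes, because probes differ in brightness. A gene was called changed at a Benjamini-Hochberg adjusted p under 0.05 in a limma fit of all 14 arrays to 21967 genes. Of these 12963 had a symbol, and each kept probe without a symbol was counted as a gene. The 75th percentile of signal ran from 119.4 to 418.5 between arrays and 50.4% to 68.69% of spots were well above background. Arg1, the gene behind the sort, lay at 6.41 ± 0.36 (SD, 3 usable arrays) in Arg1+ cells and at 3.16 ± 1.06 (n = 4) in Arg1- cells, a log2 difference of 3.25 (SE 0.43, adjusted p = 0.000526). In both blood groups Arg1 was far lower, at -3.48 ± 0.20 after TBI and -3.57 ± 0.40 in normal mice, so the cells labelled Arg1- carried more Arg1 RNA than post-TBI blood monocytes (log2 difference 6.65, SE 0.43, adjusted p = 5.86e-08). Arg1 was well above background on 2 of the 3 arrays in each blood group. Monocyte and macrophage markers such as Csf1r, Itgam and Adgre1 were well above background on every usable array of each group.

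Promoter sequences are shown for Ly6c2, Plac8 and Ms4a4c, because these 3 genes fell together from blood to Arg1+ cells. Each run holds the 250 bases upstream of an annotated start in the RefSeq table on GRCm38.p6, written 5′ to 3′ on the gene's own strand. The table held 5 of the 6 members, all except Hp. Capitals mark the PU.1 core GAGGAAGT, the binding motif of PU.1, a transcription factor of myeloid cells. The Ly6c2 run is chr15:75111972-75112221 on the minus strand, the Plac8 run is chr5:100572206-100572455 on the minus strand and the Ms4a4c run is chr19:11407411-11407660 on the plus strand.

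Ly6c2: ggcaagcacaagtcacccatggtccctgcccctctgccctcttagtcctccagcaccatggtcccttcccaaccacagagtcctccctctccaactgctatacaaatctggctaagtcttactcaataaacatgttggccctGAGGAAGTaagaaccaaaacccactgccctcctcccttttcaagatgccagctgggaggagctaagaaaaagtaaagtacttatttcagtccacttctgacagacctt

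Plac8: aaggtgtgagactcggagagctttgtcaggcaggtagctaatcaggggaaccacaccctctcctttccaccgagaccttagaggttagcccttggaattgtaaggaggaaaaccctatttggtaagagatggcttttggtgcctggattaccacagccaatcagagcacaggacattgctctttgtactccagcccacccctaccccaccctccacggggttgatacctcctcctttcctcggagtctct

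Ms4a4c: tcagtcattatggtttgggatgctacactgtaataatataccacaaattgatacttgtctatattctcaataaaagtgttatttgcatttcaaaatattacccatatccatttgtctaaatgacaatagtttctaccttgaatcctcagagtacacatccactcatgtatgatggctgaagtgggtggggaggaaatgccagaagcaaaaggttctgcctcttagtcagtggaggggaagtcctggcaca

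Ly6c2 held the PU.1 core 108 bases before its start, and its other annotated start, a little downstream, had the same match and one more at 8 bases. That motif was found in 2.44% of 32851 promoter windows of the same length. The other motifs were also searched on both strands. The first was the core of the interferon-stimulated response element (GAAA, 2 free bases, GAAA, in 2.98% of windows). The second was a composite element for PU.1 with an interferon regulatory factor (GGAA, 2 free bases, GAAA, 2.30%). The others were the loose C/EBP motif TTGCNNAA (9.56%) and the glucocorticoid response element (0.387%). The first 2 of these can overlap in a sequence. Of these, only the C/EBP motif matched a member: it lay 12 bases before the other annotated start of Plac8. None of the 5 motifs matched in the windows of Ms4a4c, Vcan or F13a1. A match says only that the letters are there.

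**Figure D1:**
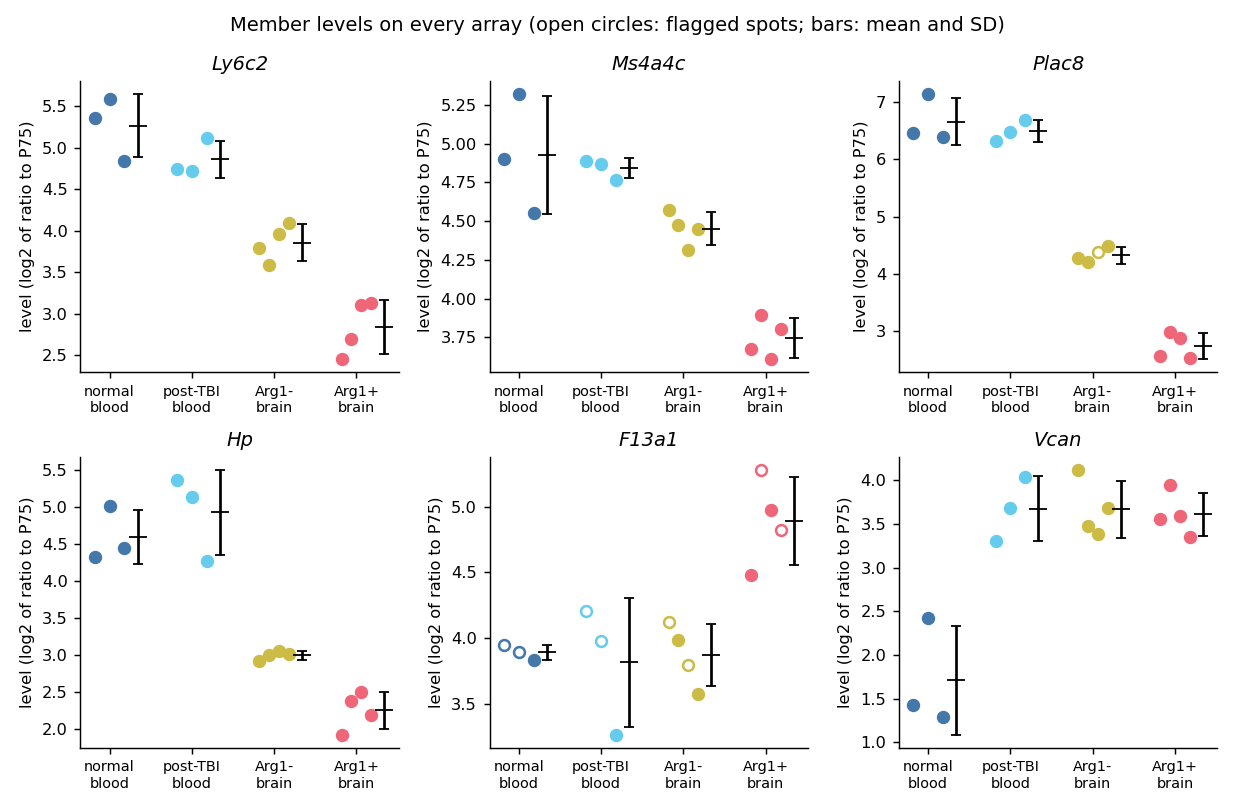
Level of each member on every array (log2 ratio to the array's 75th percentile) in the 4 groups, with the mean and SD beside each group. Open circles are spots the scanner software flagged, and for F13a1 the mean includes them. Ly6c2, Plac8 and Hp step down from blood to Arg1- to Arg1+ brain cells, and Ms4a4c is lowest in Arg1+ cells. F13a1 is highest in Arg1+ cells and Vcan is lowest in normal blood.

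Ly6c2 encodes the lipid-anchored surface protein that, with its neighbour Ly6c1, gives monocytes the Ly6C antigen. Its level was 5.36, 5.59 and 4.85 on the 3 normal blood arrays and 4.74, 4.72 and 5.12 on the 3 post-TBI blood arrays. On the Arg1- brain arrays it was 3.80, 3.58, 3.96 and 4.09, and on the Arg1+ brain arrays 2.45, 2.69, 3.1 and 3.13. The brain groups overlapped neither with blood nor with each other, while the blood groups overlapped. Ly6c2 was 2.02-fold lower in Arg1+ than in Arg1- cells (log2 difference -1.01, SE 0.20, adjusted p = 0.00831). It fell by 1.00 on the log2 scale (SE 0.22, adjusted p = 0.00233) in Arg1- cells and by 2.02 (SE 0.22, adjusted p = 3.31e-06) in Arg1+ cells, each against post-TBI blood. Between the blood groups the difference was -0.40 (SE 0.23, adjusted p = 0.872), with a 95% interval from -0.90 to 0.09.

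The probe of Ly6c1, the near-identical neighbour, was flagged on 6 of 14 arrays and had no usable array in post-TBI blood, so it was not tested in the main fit. With flagged spots kept, Ly6c1 stood at 2.84 ± 0.12 in Arg1- and 2.01 ± 0.29 in Arg1+ cells, a difference of -0.83 (SE 0.26, adjusted p = 0.0762). Against post-TBI blood it was lower by 1.73 in Arg1- cells (log2 difference -1.73, adjusted p = 0.000200) and by 2.57 in Arg1+ cells (-2.57, adjusted p = 3.18e-06). RNA of these paralogs can bind to each other's probes, so the values of Ly6c2 and Ly6c1 are not separate measurements.

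Ms4a4c belongs to the family of MS4A membrane-spanning proteins. Its level was 4.90, 5.32 and 4.56 in normal blood, 4.89, 4.87 and 4.77 in post-TBI blood, 4.57, 4.47, 4.32 and 4.45 in Arg1- cells and 3.67, 3.90, 3.61 and 3.80 in Arg1+ cells. Arg1+ cells lay below every other array, and Arg1- cells overlapped with normal blood through its replicate 4. Ms4a4c was 1.63-fold lower in Arg1+ than in Arg1- cells (log2 difference -0.71, SE 0.16, adjusted p = 0.0172). That call was lost without Arg1- brain replicate 1 (adjusted p = 0.0567) or Arg1+ brain replicate 3 (0.0562), and over all 28 alternatives the adjusted p ran from 0.00726 to 0.0567. Against post-TBI blood it fell by 1.10 (SE 0.17, adjusted p = 0.000120) in Arg1+ cells, and in Arg1- cells the difference was -0.39 (SE 0.17, adjusted p = 0.0972). Between the blood groups it differed by -0.08 (95% interval -0.48 to 0.31).

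Plac8 encodes a small cysteine-rich protein inside myeloid cells and had the widest range of the members that fell. Its level was 6.46, 7.14 and 6.39 in normal blood and 6.33, 6.48 and 6.70 in post-TBI blood. On the usable Arg1- arrays it was 4.29, 4.21 and 4.49, with 1 spot flagged, and on the Arg1+ arrays 2.57, 2.99, 2.89 and 2.54. Blood, Arg1- and Arg1+ cells formed 3 separate steps. Plac8 was 4.51-fold lower in Arg1- cells than in post-TBI blood (log2 difference -2.17, SE 0.22, adjusted p = 4.74e-06) and 13.5-fold lower in Arg1+ cells (-3.75, SE 0.21, adjusted p = 5.69e-09). Within the brain it was 2.99-fold lower in Arg1+ than in Arg1- cells (-1.58, SE 0.21, adjusted p = 0.000469). The blood groups differed by -0.16 (95% interval -0.63 to 0.31).

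Hp encodes haptoglobin, a secreted protein that binds free haemoglobin and that neutrophils also store. Its level was 4.33, 5.02 and 4.45 in normal blood and 5.37, 5.15 and 4.28 in post-TBI blood, where replicate 4 lay below the other post-TBI arrays. In Arg1- cells it was 2.92, 3.00, 3.06 and 3.02, and in Arg1+ cells 1.93, 2.38, 2.50 and 2.19. All brain arrays lay below all blood arrays, and all Arg1+ arrays below all Arg1- arrays. Against post-TBI blood Hp fell by 1.93 (SE 0.24, adjusted p = 2.06e-05) in Arg1- and by 2.68 (SE 0.24, adjusted p = 4.78e-07) in Arg1+ cells, the latter 6.40-fold. Between the brain groups the difference was -0.75 (SE 0.22, 95% interval -1.22 to -0.27), which did not pass the threshold (adjusted p = 0.0687). It passed under 4 of 28 alternatives, among them the fits without post-TBI blood replicate 1 (adjusted p = 0.0483) and replicate 4 (0.0120), and over all 28 the adjusted p ran from 0.0120 to 0.167. Between the blood groups it was 0.33 (95% interval -0.22 to 0.88).

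F13a1 encodes the catalytic subunit of coagulation factor XIII, the transglutaminase that cross-links fibrin in a clot. Its spot was flagged by the scanner software on 8 of 14 arrays, which left 1 usable array in each blood group. F13a1 therefore could not be tested in the main fit and is given with flagged spots kept, an alternative chosen after seeing the data. Its level was then 3.95, 3.90 and 3.84 in normal blood, 4.21, 3.97 and 3.27 in post-TBI blood, 4.12, 3.99, 3.80 and 3.58 in Arg1- cells and 4.48, 5.28, 4.98 and 4.82 in Arg1+ cells. Every Arg1+ array lay above every other array, and the other 3 groups overlapped. On unflagged spots alone the 2 Arg1+ arrays were at 4.48 and 4.98 and the 2 Arg1- arrays at 3.99 and 3.58. F13a1 was 2.03-fold higher in Arg1+ than in Arg1- cells (log2 difference 1.02, SE 0.21, adjusted p = 0.0108 over 22189 genes) and 2.11-fold higher than in post-TBI blood (1.07, SE 0.23, adjusted p = 0.00156). Arg1- cells differed from post-TBI blood by 0.05 (95% interval -0.43 to 0.54), and the blood groups by -0.08 (-0.60 to 0.44).

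Vcan encodes versican, a large chondroitin sulfate proteoglycan that binds hyaluronan in the extracellular matrix and that human monocytes are also known to make. Its brighter probe was at 1.42, 2.43 and 1.28 in normal blood and at 3.30, 3.68 and 4.04 in post-TBI blood. In Arg1- cells it was at 4.12, 3.48, 3.39 and 3.68, and in Arg1+ cells at 3.55, 3.95, 3.59 and 3.36. Normal blood lay below every array from an injured mouse, and the 3 groups from injured mice overlapped. Vcan was 3.89-fold higher in post-TBI than in normal blood (log2 difference 1.96, SE 0.29, adjusted p = 0.0134). The second Vcan probe, which is dimmer, gave 2.26 (SE 0.38, adjusted p = 0.0324 over all kept probes) for the same comparison. Against normal blood the brighter probe was higher by 1.95 in Arg1- cells (SE 0.27, adjusted p = 5.55e-05) and by 1.90 in Arg1+ cells (SE 0.27, adjusted p = 4.81e-05).

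Between Arg1+ and Arg1- cells the brighter Vcan probe differed by -0.06 (95% interval -0.59 to 0.48), and Arg1- cells differed from post-TBI blood by -0.01 (-0.59 to 0.57). Against post-TBI blood the dimmer probe gave -0.55 in Arg1- cells (SE 0.36, adjusted p = 0.262 over all kept probes). In Arg1+ cells it gave -0.47 (SE 0.36, adjusted p = 0.321). The Vcan call in blood rested on few arrays. It was lost without normal blood replicate 2 (adjusted p = 0.0942) or 4 (0.0568), without post-TBI blood replicate 3 (0.0777) or 4 (0.0620), without the filter on dim probes (0.0760), and with only the 2 blood groups in the fit (0.985). The difference itself lay between 1.75 and 2.32 over all 29 alternatives, and the adjusted p between 0.00157 and 0.985. All 3 post-TBI arrays were above all 3 normal arrays.

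**Figure D2:**
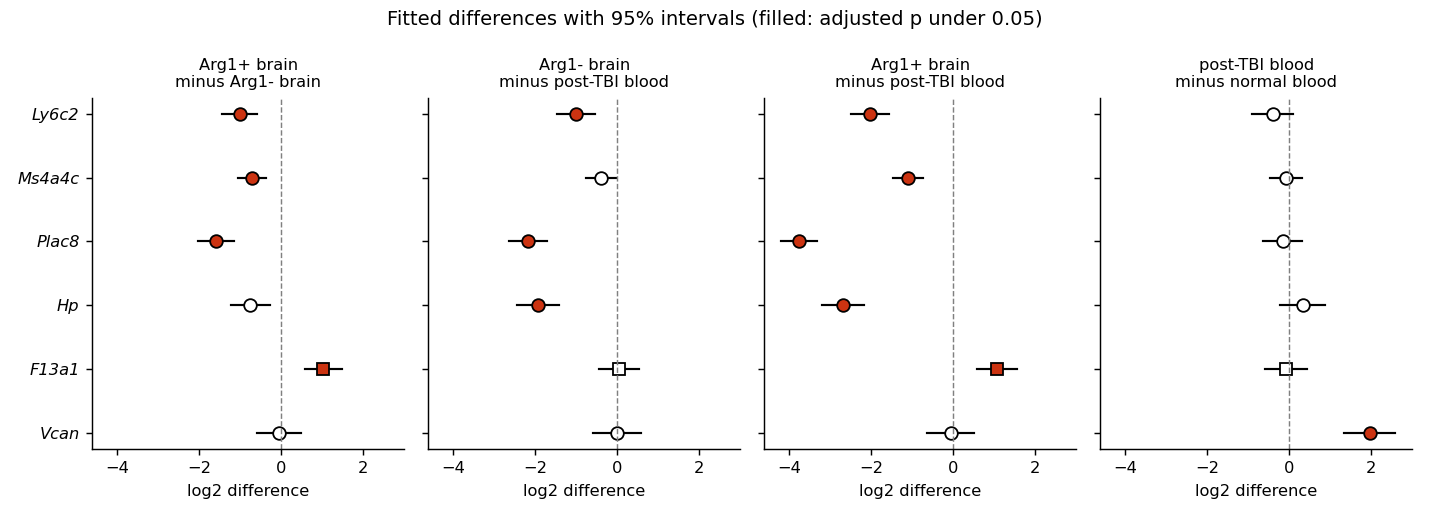
Fitted log2 difference of each member (points) with its 95% interval (lines) in 4 comparisons; filled points have an adjusted p under 0.05, and squares are F13a1 with flagged spots kept. Plac8 reaches -3.75 between Arg1+ cells and post-TBI blood, and Vcan is the only filled point between the blood groups.

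Between Arg1+ and Arg1- cells, 3 of the 5 tested members were called, all lower in Arg1+ cells. Of all genes 5.04% were called there, 2.14% higher and 2.90% lower. With F13a1 included, the groups did not overlap for 5 of the 6 members, against 14.9% of all genes. Here and in the counts out of 6 below, F13a1 was taken with flagged spots kept. The shares over all genes rest on usable spots alone. Arg1- cells differed from post-TBI blood in 3 of 5 members, all lower, where 33.4% of genes were called, 17.0% higher and 16.4% lower, and 4 of 6 members against 37.0% of genes did not overlap. Arg1+ cells differed from post-TBI blood in 4 of 5, all lower, where 39.9% of genes were called, 19.9% higher and 20.0% lower, and 5 of 6 members against 39.7% of genes did not overlap. In blood 1 of 5, Vcan, was called, higher after TBI, where 0.150% of genes were called, 0.109% higher and 0.0410% lower. Vcan was also the 1 member of 6 without overlap there, against 9.26% of genes. All 5 were called in each brain group against normal blood, Vcan higher and the other 4 lower. For Arg1+ cells 40.5% of genes were called in that comparison (19.7% higher, 20.7% lower), and 6 of 6 members against 46.1% of genes did not overlap. For Arg1- cells 32.3% were called (16.2% higher, 16.1% lower), and 4 of 6 members against 43.2% of genes did not overlap. The Ms4a4c call between Arg1- cells and normal blood (log2 difference -0.47, adjusted p = 0.0460) held in 13 of 28 alternatives, with adjusted p from 0.0107 to 0.257. It was lost without any 1 of the Arg1- or Arg1+ arrays, without normal blood replicate 2 or 3, and without post-TBI blood replicate 3. It was also lost with the slide as a block (adjusted p = 0.0549), with the replicate block (0.0838), without the intensity trend (0.0635) and with only the 2 groups in the fit (0.0796). These comparisons share groups, so they are not independent of each other.

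For Ly6c2, Plac8 and Hp the order of mean levels was blood, then Arg1- cells, then Arg1+ cells, with no overlap between these steps and no call between the blood groups. For Ms4a4c only Arg1+ cells stood apart from all other arrays. The levels of these 4 genes correlated pairwise at Pearson r 0.886 to 0.972, over 14 arrays or, for pairs with Plac8, 13. F13a1 correlated with them at -0.744 to -0.548 and Vcan at -0.530 to -0.361. The arrays fall into the 4 groups, so these values mostly restate the group levels.

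The arrays lay on 4 slides, and each slide held both brain groups. Within slides Ly6c2 differed between Arg1+ and Arg1- cells by -1.63 to -0.45, Ms4a4c by -0.96 to -0.42 and Hp by -1.09 to -0.41 on 4 of 4 slides, and Plac8 by -1.91 to -1.40 on the 3 slides where it was usable. F13a1 was higher in Arg1+ cells on all 4 slides, by 0.84 to 1.48. Vcan ran from -0.53 to 0.56 there, with both signs. In blood Vcan was higher after TBI on all 3 slides that held both groups, by 0.87, 2.25 and 2.76. Ly6c2, Ms4a4c, Plac8, Hp and F13a1 had both signs across those slides. With the slide as a block, the members' calls between Arg1+ and Arg1- cells and between the blood groups were unchanged, with Ly6c2 at -1.01 (adjusted p = 0.0160), Plac8 at -1.66 (0.000871), Ms4a4c at -0.71 (0.0202), Hp at -0.75 (0.0590), F13a1 at 1.02 (0.0144) and Vcan in blood at 1.96 (0.0370). Against blood the block ended 1 call, that of Ms4a4c between Arg1- cells and normal blood, given above.

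**Figure D3:**
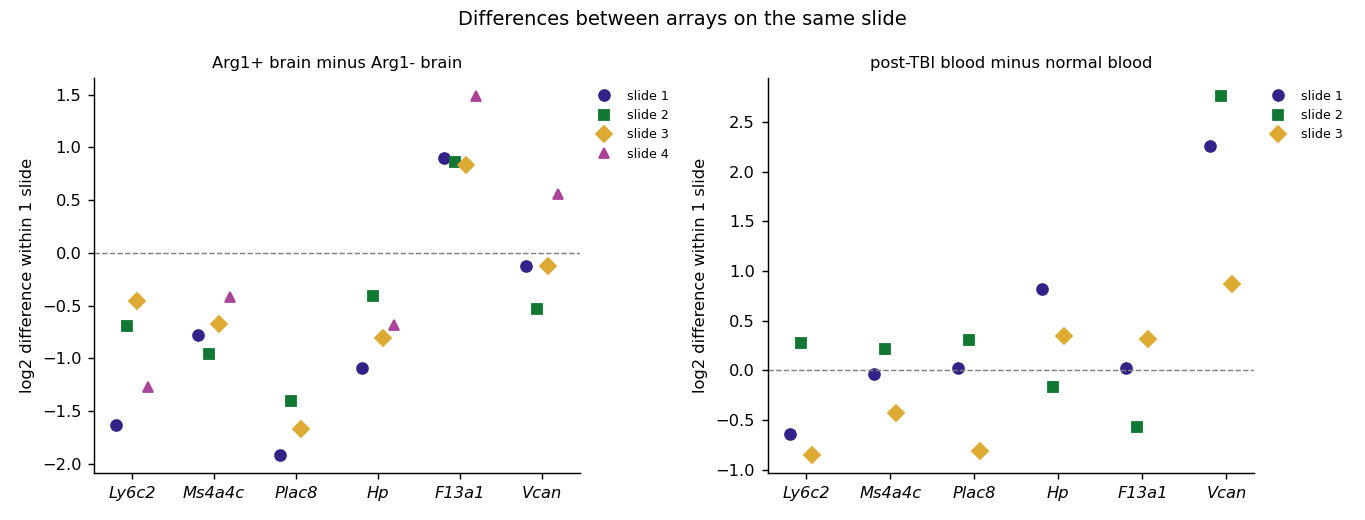
Log2 difference between arrays on the same slide (1 symbol per slide) for each member, between the brain groups (left) and between the blood groups (right). Ly6c2, Ms4a4c, Plac8 and Hp are below 0 and F13a1 above 0 on every slide on the left; on the right, only Vcan has 1 sign on all slides.

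Of 19 further genes known from Ly6C-high monocytes, 16 were tested. The share of all genes called between the brain groups was 5.04%. Between the brain groups 2 were lower in Arg1+ cells: Fcnb (ficolin-B, a secreted lectin; log2 difference -3.86, SE 0.68, adjusted p = 0.00370; well above background on 3 of 4 Arg1+ arrays) and Ifitm6 (-2.59, SE 0.20, adjusted p = 6.03e-06). Cd93, a surface glycoprotein, was higher (0.91, SE 0.19, adjusted p = 0.0129). The other 13 were not called, among them Ccr2, the receptor that draws these cells into tissue (-1.0, adjusted p = 0.0602). The median over the list was 0.12, against 0 over all genes tested. Against post-TBI blood, where 33.4% of all genes were called in Arg1- and 39.9% in Arg1+ cells, the list divided. Of the 16, 5 rose and 4 fell in Arg1- cells (median -0.15, all genes -0.02), with Mgst1, a membrane glutathione transferase, at -2.69 and the matrix protein gene Thbs1 (thrombospondin) at 2.74. In Arg1+ cells 5 rose and 6 fell (median -0.33, all genes -0.03), with Ifitm6 at -4.92, Fcnb at -2.48, Thbs1 at 3.61 and Cd93 at 2.52. Ccr2 was among those that fell in Arg1+ cells (-1.37, SE 0.31, adjusted p = 0.00251). Between the blood groups none of the 16 was called by limma (median 0.14, all genes 0). An unadjusted p under 0.05 was reached there by 5 of them and by 1426 of all 21967 genes.

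**Figure D4:**
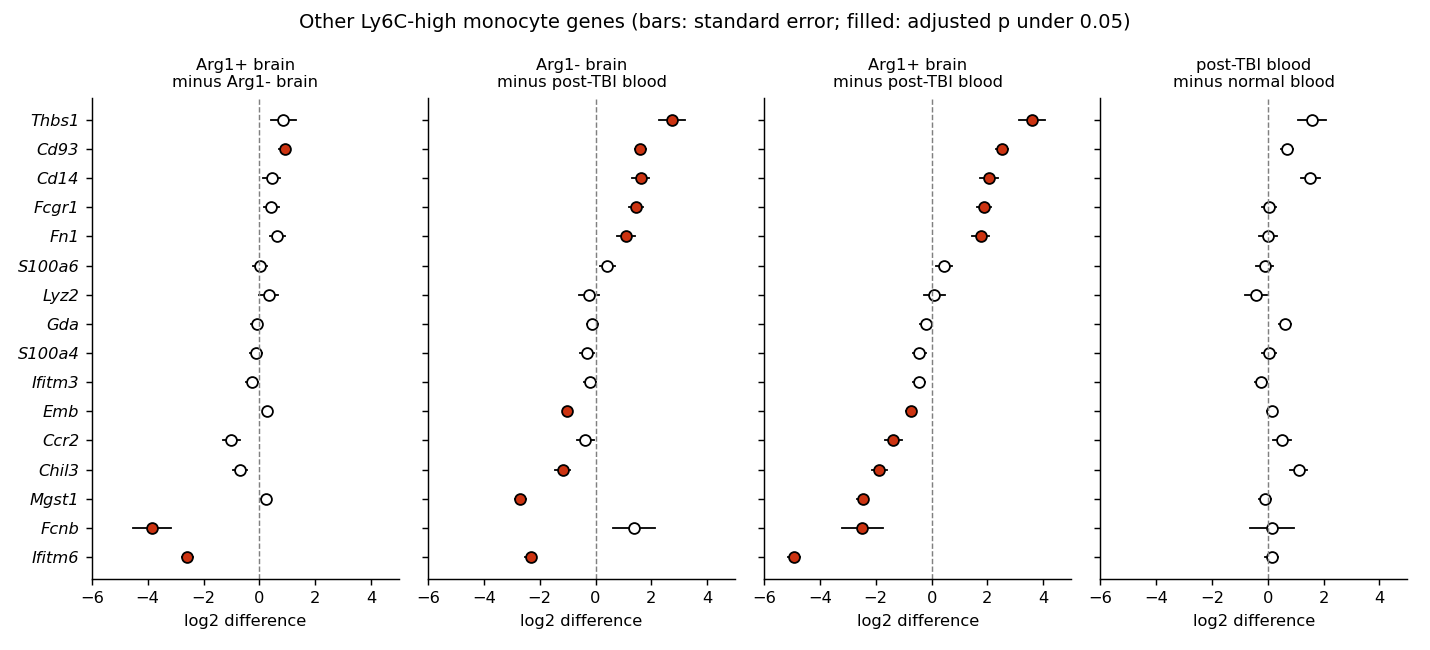
Log2 difference (points) with its standard error (lines) of the 16 tested further genes of Ly6C-high monocytes in 4 comparisons; filled points have an adjusted p under 0.05. Ifitm6 lies at the low end and Thbs1 and Cd93 at the high end of the differences between Arg1+ cells and post-TBI blood.

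In the Ly6 family 6 of 9 genes were tested. Among all genes 5.04% were called between the brain groups. Ly6f (-1.53) and Ly6a (Sca-1, -1.33, SE 0.32, adjusted p = 0.0274) were lower in Arg1+ than in Arg1- cells. Against post-TBI blood Ly6f was lower in Arg1- cells (-1.91), and Ly6f (-3.43), Ly6i (-1.83) and Ly6a (-1.05) in Arg1+ cells. In the Ms4a family, with 7 of 13 tested, Ms4a4d (-1.03) and Ms4a3 were lower in Arg1+ than in Arg1- cells, and Ms4a3 was well above background on only 1 of 4 Arg1+ arrays, against 4 of 4 Arg1- arrays. Ms4a7, a family member known from tissue macrophages, was higher than in post-TBI blood by 4.12 in Arg1- cells (SE 0.20, adjusted p = 1.43e-09). In Arg1+ cells, where Ms4a4c was called lower than in post-TBI blood, Ms4a7 was higher by 4.53 (SE 0.20, adjusted p = 2.98e-10). Of the 7 tested, 3 rose and 2 fell against post-TBI blood in Arg1- cells, and 2 rose and 4 fell in Arg1+ cells. The shares of all genes called were 33.4% and 39.9%. No gene of either family was called between the blood groups by limma. There 0 Ly6 genes, 2 Ms4a genes and 1426 of all 21967 genes had an unadjusted p under 0.05.

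All 15 transcription factors of the monocyte lineage were tested, and limma called none between the brain groups (4 at an unadjusted p under 0.05) or between the blood groups (3). Over all 21967 genes, 3854 and 1426 were at an unadjusted p under 0.05 in these 2 comparisons. Against post-TBI blood 6 rose and 4 fell in Arg1- cells, and 6 rose and 6 fell in Arg1+ cells. Among all genes 33.4% and 39.9% were called there. Nr4a1, which Ly6C-low monocytes need, fell by 2.13 in Arg1- and by 2.94 in Arg1+ cells. Maf rose by 2.35 and by 2.90, Egr2 by 2.91 and by 2.52, and Egr1 by 2.53 and by 2.54, in Arg1- and Arg1+ cells respectively.

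Around the clotting factor F13a1, 12 of 14 genes of clot formation and fibrinolysis were tested. The share of all genes called between the brain groups was 5.04%. Between the brain groups F7 (factor VII, 1.62) and Procr (the protein C receptor, 1.09) were higher in Arg1+ cells and F5 (factor V) was lower (-2.35, adjusted p = 0.0117), well above background on 2 of 4 Arg1+ arrays. Against post-TBI blood 7 rose and 2 fell in Arg1- cells, and 7 rose and 1 fell in Arg1+ cells (medians 1.24 and 1.43). The shares over all genes were 33.4% and 39.9%. Procr was not well above background on any post-TBI blood array, and was at least 6.02-fold higher in Arg1- and at least 12.8-fold higher in Arg1+ cells. Such bounds set the bright group's mean against the floor of 0.05, which lay above the lowest ratio that any probe showed well above background on each post-TBI blood array (0.0197, 0.0408 and 0.0457). Plau, urokinase, was higher by 4.55 in Arg1- and by 4.02 in Arg1+ cells, and was well above background on 2 of 3 post-TBI blood arrays. Between the blood groups none of the 12 was called by limma, and 0 had an unadjusted p under 0.05.

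Of the genes that handle hyaluronan and versican, 12 of 15 were tested. Among all genes 5.04% were called between the brain groups. Hyal1, a hyaluronidase, was the only one called between the brain groups and was higher in Arg1+ cells by 1.86 (SE 0.24, adjusted p = 0.000341). Adamts1, a protease that cuts versican, was not well above background on any post-TBI blood array and was at least 60.5-fold higher in Arg1- and at least 71.3-fold higher in Arg1+ cells. Against post-TBI blood 3 of them rose and 1 fell in Arg1- cells, and 4 rose and 1 fell in Arg1+ cells. These counts out of 12 were near the shares of all genes called there, 33.4% and 39.9%. None of the 12 was called by limma between the blood groups, where Vcan was, and 0 had an unadjusted p under 0.05.

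Haptoglobin's partners in haemoglobin clearance had 4 of 9 genes tested. Between the brain groups 5.04% of all genes were called. Cd163, the receptor for the haptoglobin complex, was higher in Arg1+ than in Arg1- cells by 1.39 (SE 0.22, adjusted p = 0.00148) and Blvrb, a biliverdin reductase, by 1.28 (SE 0.24, adjusted p = 0.00573), while Hp was lower there without passing the threshold. Cd163 was at -2.60 in Arg1+ and -3.98 in Arg1- cells, where 2 of 4 arrays were well above background. Against post-TBI blood limma called 0 of the 4 in Arg1- cells, where 1 had an unadjusted p under 0.05, and 3 of the 4 rose in Arg1+ cells. Among 17 of 20 interferon-stimulated genes tested, limma called none between the brain groups, with 2 at an unadjusted p under 0.05 (median -0.32), and Ifit3 was the only one called between the blood groups, lower after TBI (-2.48, SE 0.41, adjusted p = 0.0241). In that comparison 15 of the 17 and 1426 of all 21967 genes had an unadjusted p under 0.05. The list's median there was -1.08 (all genes 0). Against post-TBI blood 12 rose and none fell in Arg1- cells (median 1.24), and 10 rose and none fell in Arg1+ cells (median 1.11). Among all genes 33.4% and 39.9% were called in these comparisons. Against normal blood the counts were 3 higher and 1 lower in Arg1- cells (median 0.16), and 2 higher and 4 lower in Arg1+ cells (median -0.28). There the shares over all genes were 32.3% and 40.5%.

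Markers of other cells also differed between the groups, not always in the direction of the members. Of all genes 5.04% were called between the brain groups. Against post-TBI blood 33.4% were called in Arg1- and 39.9% in Arg1+ cells. Of 11 tested markers of patrolling Ly6C-low monocytes, 10 were lower in each brain group than in post-TBI blood. Their summed linear ratio was 164 to 182 in post-TBI blood, 25.9 to 32.1 in Arg1- and 14.8 to 19.5 in Arg1+ cells, and between the brain groups 6 were lower in Arg1+ cells and 1, Cd36, was higher. Of 6 tested dendritic cell markers, 5 were lower in Arg1+ than in Arg1- cells, with sums of 0.372 to 0.510 against 4.20 to 6.17; Kmo was not well above background on any Arg1+ array. Of 13 tested neutrophil markers, 8 were lower in Arg1+ than in Arg1- cells and 1, Mmp8, was higher, with sums of 10.9 to 22.0 against 35.4 to 145.7, and Elane was not well above background on any Arg1+ array. Set against post-TBI blood, Arg1- cells had 8 of the 13 called higher and 2 called lower, and Arg1+ cells had 2 and 4. Plac8 and Hp are also expressed by neutrophils. Of 9 natural killer cell markers 1, Klrd1, was lower, well above background on 1 of 4 Arg1+ arrays. The part of these cells in the fall of Ly6c2, Plac8, Ms4a4c and Hp was not tested.

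Of 10 microglia markers limma called none between the brain groups. An unadjusted p under 0.05 was reached by 6 of the 10 and by 3854 of all 21967 genes. The sum of the 10 markers was 42.6 to 58.5 in Arg1- and 53.1 to 85.2 in Arg1+ cells, against 11.6 to 13.2 in post-TBI blood. Siglech and Slc2a5 were not well above background on any post-TBI blood array. The part of microglia in the lower levels of Ly6c2, Plac8 and Hp in the brain groups was not tested. F13a1 is also contained in platelets. Of 7 tested platelet markers 1, Ppbp, was called higher in Arg1+ than in Arg1- cells by limma (2.72, adjusted p = 0.00181). The platelet sums were 8.27 to 13.6 against 2.10 to 5.70, but the median difference over the 7 was -0.03. Against post-TBI blood, where F13a1 was also higher in Arg1+ cells, 5 of the 7 were lower and 0 higher (median -1.58). Gp9, a platelet-defining gene, exceeded background clearly on 0 of the 4 arrays of Arg1+ cells and on 1 of the 4 of Arg1- cells, while Itga2b, Gp1ba, Gp1bb, Treml1 and Ppbp did so on all 14 arrays. The part of platelets in the F13a1 difference was not tested.

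In blood, where Vcan differed, limma called none of the 83 tested markers of the 10 cell types. An unadjusted p under 0.05 was reached there by 12 of them and by 1426 of all 21967 genes. The platelet sum was 12.7 to 24.2 after TBI and 5.53 to 9.56 in normal mice, and the B cell sum 6.42 to 6.48 and 4.73 to 5.65. The neutrophil sum was 19.0, 26.4 and 101.3 on the post-TBI arrays, with replicate 4 the highest and also the lowest for Hp and F13a1 in its group. In normal blood the neutrophil sum was 34.1 and 33.3 on replicates 2 and 3, and 221 on replicate 4 with 2 flagged spots kept. Leaving those 2 markers out gave 6.82 on replicate 4. That value adds fewer markers than the other sums, so it cannot be set beside them. The part of these cells in the Vcan difference was not tested. Markers of plasmacytoid dendritic cells, T cells and B cells gave 0, 0 and 1 limma call (Cd22, higher in Arg1+ cells) between the brain groups, where 2 of the plasmacytoid and 3 of the T cell markers had an unadjusted p under 0.05.

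The tested genes most like each member over the arrays were picked by Pearson r. For Ly6c2 they were Lipe (r = 0.979 over 12 arrays), Pip4k2a and Tiam1. For Plac8 they were Itgal (0.993 over 12 arrays), Trps1 and Plbd1, for Hp Ndufaf7 (0.978 over 14), Nat8l and Cyp4f16, and for Ms4a4c A530032D15Rik (0.971 over 14), Fgl2 and 9930111J21Rik2. For Vcan they were Tarm1 (0.953 over 14), Dpep3 and Rsc1a1. The closest genes to F13a1 were less alike, with Tm9sf2 at 0.903, then Sh3bp5 and Snx7. Itgal is also one of the patrolling monocyte markers above, and all of these values follow the 4 groups.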

How the data were processed

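Per the file headers, each array's deposited scanner file is the output of Feature Extraction 10.7.3.1, with a processed signal intensity (background-subtracted, not scaled between arrays) and other values such as 0 or 1 flags for spots. A deposited table holds the authors' log2 values, used as an alternative only. The submitters' processing notes name limma without a version.

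The processed signal was divided by the array's 75th percentile, raised to at least a ratio of 0.05 and log2 transformed. Flagged spots were set to missing, with 200 to 728 spots per array set aside. Of 41174 probes, 464 were dropped for having under 2 usable arrays in some group and 13105 for being well above background on under 3 arrays. RefSeq names (GRCm38.p6) were used for names and promoter sequences, while the array annotation is on mm9. Taking the brightest of a symbol's probes left 21967 entries, 12963 with a symbol. The others are single probes without a symbol, several of which can report the same transcript. All entries are counted as genes here. All arrays entered 1 fit of 4 groups in limma 3.58.1 (R 4.3.3; lmFit and trended eBayes, with 10 residual degrees of freedom), and the pipeline was tested on simulated data. The number of arrays limits the precision.

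The members and all lists were chosen with earlier results of these data known, and some list genes are not reported here. Named are the 6 members, Arg1, up to 4 called genes of a list per comparison by size of difference, genes a sentence on a member turns on, and the 3 genes most like each member. Summed marker levels add linear ratios of tested markers with flagged spots kept. Replicate numbers were not used as pairs in the main fit. Deviations of same-numbered arrays from their group means correlated at r -0.46 to 0.40 over 18 pairs. Alternatives covered scaling, background, floor, filter, probe choice, trend, blocks, groups in the fit, flagged spots and each array left out.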

Additional observations from a re-analysis of the deposited data

Results flagged for a closer look

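In a search over the 6 members and the named list genes for an array far from the others of its group (79 groups of 4 arrays), 4 arrays stood apart, where chance gives about 1 in 20 groups. None was a value of the 6 members. Cd14, a co-receptor for lipopolysaccharide, was at 5.056 on 1 Arg1+ brain array and at 4.12 to 4.24 on the others. Cd163, the haptoglobin receptor, was at -2.996 on 1 Arg1+ brain array and at -2.49 to -2.44 on the others. Hyal2, a hyaluronidase, was at -2.818 on 1 Arg1- brain array and at -2.36 to -2.32 on the others. Ms4a8a, a relative of Ms4a4c, was at 1.714 on 1 Arg1- brain array and at 1.18 to 1.25 on the others.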

How the results depend on the processing

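The differences of Ly6c2 and Plac8 between Arg1+ and Arg1- cells and of both brain groups against blood, and of F13a1 in Arg1+ cells, kept their direction and their call in all alternatives run (28 for Ly6c2 and Plac8, 26 for F13a1). Genes called between the blood groups numbered 33, but 15 with normexp and quantile normalization, 20 with the deposited log2 values, 0 with only the 2 groups in the fit and 2 with the replicate block; in the main fit 1426 genes had an unadjusted p under 0.05. The member called there, Vcan, was not called (0 members) without the filter on dim probes, with only the 2 groups or with the replicate block. Leaving out 1 array gave 2 to 60 called genes and 0 to 1 called members between the blood groups, and 602 (without Arg1- brain replicate 3) to 1790 (without post-TBI blood replicate 4) called genes between the brain groups, with 698 without Arg1+ brain replicate 3, in place of 1108. The lowest count in blood came without post-TBI blood replicate 3, the highest without post-TBI blood replicate 1, and leaving out normal blood replicate 2, normal blood replicate 3 or post-TBI blood replicate 4 gave 10, 54 and 16. The other changes beyond 1.5 times, 18 to 21 genes, came from leaving out Arg1- brain replicate 2, 3 or 4 or Arg1+ brain replicate 1, 3 or 4.

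Signs turned only for differences near 0 that were never called. Vcan between the brain groups was 0.0102 with the mean of its probes and 0.0766 with its dimmer probe. Vcan in Arg1- cells against post-TBI blood was 0.0124 with quantile normalization, 0.0630 with normexp and quantile normalization, 0.0387 with the deposited values and 0.00904 with the replicate block. F13a1 for the same comparison was -0.0527 with normexp and quantile normalization, -0.0260 with the deposited values, -0.00636 with the replicate block and -0.0295 without Arg1- brain replicate 1. With 1 array left out, Vcan ran from -0.168 to 0.0945 between the brain groups, from -0.25 to 0.12 for Arg1+ cells against post-TBI blood and from -0.19 to 0.18 for Arg1- cells. F13a1 ran from -0.22 to 0.25 for Arg1- cells against post-TBI blood, from -0.107 to 0.0741 (0.000474 without Arg1- brain replicate 3, 0.00403 without normal blood replicate 2) against normal blood and from -0.27 to 0.20 between the blood groups, where Plac8 ran from -0.298 to 0.0774 and Ms4a4c from -0.27 to 0.11. Beyond the calls named with the members, Ms4a4c in Arg1- cells against post-TBI blood passed with the deposited values (adjusted p = 0.0475; 0.0475 to 0.199 over 28 alternatives), and Hp between the brain groups with quantile normalization (0.04996) and with only those 2 groups (0.0158). The cause was not tested.

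The replicate block left Vcan in blood at 1.94 (adjusted p = 0.0885). Deviations from the group mean correlated at r -0.46 to 0.40 between same-numbered arrays (median -0.15, 18 pairs). Between arrays on the same slide they correlated at r 0.04 to 0.59 (median 0.23, 19 pairs). Every same-numbered pair of brain arrays lay on different slides. These values therefore cannot tell whether Arg1+ and Arg1- samples of the same number came from the same mice. The array with the dimmest scale, 119.4, had 50.4% of spots well above background, and low genes are least precise there.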
